A study of Homo sapiens with 12 samples.

Results

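NT5E and 9 further genes that make, sense, move or remove extracellular adenosine were described in NCM460 cells, an established human cell line labelled as normal colonic epithelium. The 10 genes were the rows of the expression table named NT5E, ENTPD1, ENTPD2, ADORA1, ADORA2A, ADORA2B, ADA, ADK, SLC29A1 and DPP4, out of 58735 genes. NT5E was selected on these data, because its level was lower under 5-OH-TMT than with TNF-α alone. Its values in that comparison are therefore a description and carry no test, and the others were taken for their place in the same pathway.

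The study sequenced poly(A) RNA of 12 libraries in 4 groups of 3. The cells were kept in medium, given the inflammatory cytokine TNF-α, given TNF-α with 5-OH-TMT (a quaternary tryptamine that the labels call Bufotenidine), or given TNF-α after siRNA had reduced HTRA2. HTRA2, a mitochondrial serine protease, was the candidate target of the compound. All cells came from 1 line, and the labels do not say whether the libraries of a group came from separate cultures, so the p-values measure the spread between these libraries. The labels name no siRNA for the TNF-α libraries. A legend of the study describes the knockdown as compared with a control siRNA, but does not say that these libraries are the control, so an effect of HTRA2 loss and an effect of transfection cannot be told apart from the labels. The methods list several HTRA2 siRNAs, and which of them the 3 knockdown libraries received is not stated.

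Levels are FPKM, a unit that corrects for the length of a gene and the depth of a library, so they may be compared between genes. Differences are on the log2(FPKM + 0.1) scale with their standard error (SE). They were tested with limma in 1 fit of the 18079 genes whose mean FPKM over the 12 libraries was at least 0.1. A gene was called where the Benjamini-Hochberg adjusted p over all of these was under 0.05. The libraries held 31008429 to 37624399 reads on genes. HTRA2 fell from 15.4, 13.96 and 14.2 FPKM with TNF-α to 7.44, 7.18 and 7.22 in the knockdown, a log2 change of -0.98 (SE 0.09, adjusted p = 2.77e-05). The second knockdown library stood apart from its replicates: 2.95% of its reads lay on mitochondrial genes against 3.69% to 4.68% in the others. Results of the knockdown are therefore also given without it.

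The cells expressed 6 of 6 general epithelial markers (KRT8, KRT18, KRT19, EPCAM, CDH1 and CLDN4). None of 7 intestinal markers reached 1 FPKM in any library, and CDX2 was listed at 0 in all 12, which goes against the colonic label. The 4 basal or squamous keratinocyte markers (KRT5, KRT14, KRT6A and TP63) were expressed, with a summed level of 170 to 203 FPKM in medium, 176 to 192 with TNF-α, 197 to 202 under 5-OH-TMT and 211 to 260 in the knockdown. The sum follows KRT5, with a mean of 125 FPKM in medium and 166 in the knockdown. The means of KRT14 and KRT6A were also higher in the knockdown than in medium, and that of TP63 was lower (9.87 against 13.3 FPKM). The part of these differences in the results on the knockdown was not tested. None of 6 leukocyte markers reached 1 FPKM in any library. CD14 was the highest of them, at up to 0.727 FPKM, PTPRC did not exceed 0.0121 and CD3E was listed at 0 throughout. Of 6 mesenchymal markers VIM and COL1A1 reached 1 FPKM, and of 3 endothelial markers CDH5 did. From medium to the knockdown the mean of VIM was 4.63 and 1.37 FPKM, that of COL1A1 1.04 and 2.89, and that of CDH5 0.335 and 2.79. In bulk RNA, fewer cells expressing a gene and less RNA per cell cannot be told apart.

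Cells under stress release ATP, which signals through P2 receptors until ectoenzymes at the cell surface degrade it. ENTPD1 and ENTPD2 hydrolyse ATP and ADP, and NT5E, also known as CD73, converts AMP to adenosine. Adenosine acts on 4 G protein-coupled receptors, of which ADORA2A and ADORA2B raise cAMP and ADORA1 and ADORA3 lower it. It is cleared by uptake through the equilibrative transporter SLC29A1, by phosphorylation through ADK inside the cell and by deamination through ADA, which can be held at the cell surface by DPP4 (CD26). In the intestinal epithelium this chain is known for its part in fluid secretion and in barrier responses to inflammation and low oxygen.

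In medium, ADORA2B had the highest level of the 10 genes, with 30.5 ± 1.28 FPKM (SD, n = 3). ADK followed at 26.4 ± 1.21, SLC29A1 at 21.7 ± 2.11, NT5E at 20.1 ± 0.988, ADA at 11.9 ± 2.04 and ENTPD2 at 5.00 ± 0.694 FPKM. The remaining 4 genes lay under 1 FPKM in every library: ADORA1 at 0.501 ± 0.0868, DPP4 at 0.215 ± 0.0682, ENTPD1 at 0.173 ± 0.0410 and ADORA2A at 0.0410 ± 0.0214 FPKM in medium. In this order of levels, the libraries of SLC29A1 overlapped those of NT5E, and those of DPP4 overlapped those of ENTPD1. The other neighbours did not overlap in medium.

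**Figure D1:**
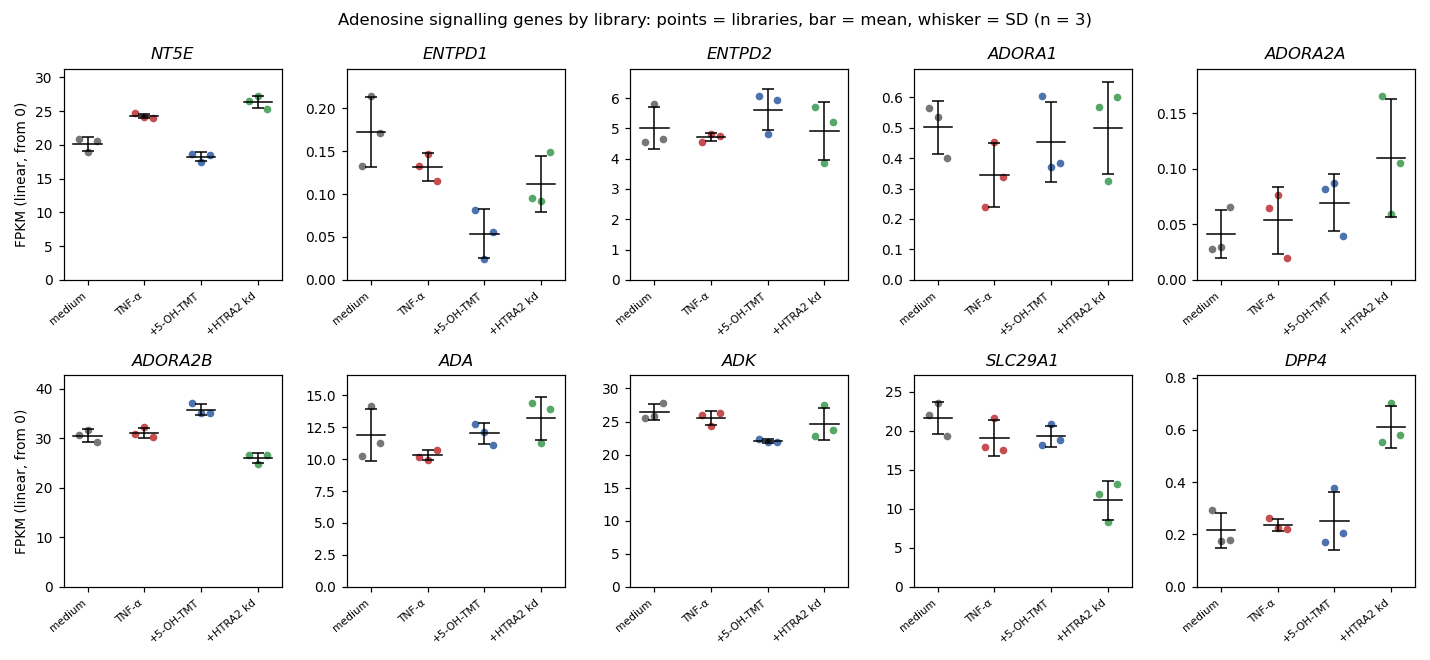
FPKM (linear axis from 0, its own scale in each panel) of the 10 adenosine genes in the 12 libraries, with 1 point per library, the group mean as a bar and the SD (n = 3) as a whisker. NT5E falls into 4 separate groups from 17.4 to 27.2 FPKM, SLC29A1 and ADORA2B are lowest in the knockdown and DPP4 is highest there.

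NT5E (ENSG00000135318) lies on the plus strand at chr6:85449584-85495791 (GRCh38), and its transcript NT5E-201 has 9 exons in GENCODE 29. The RefSeq promoter windows (GRCh38.p14, 250 bases before to 50 after each start) of the 9 members that had any were searched on both strands. Described here are those of NT5E, ADORA2B and the pair SLC29A1 and DPP4, which differed most in the knockdown. The motifs were the cAMP response element TGACGTCA, the hypoxia core ACGTG, the SP1 core GGGCGG and the kappa B consensus. None of the windows of these 4 genes held TGACGTCA or the kappa B consensus, which 1.85% and 5.91% of all 35116 windows of that length hold. The SP1 core, found in 45.0% of all windows, was matched 2 times in that of NT5E and 2 times in that of ADORA2B, and also in those of SLC29A1 and DPP4. It was matched as well in windows of ENTPD2, ADORA1, ADA and ADK and in none of ENTPD1, so it does not set the 4 genes apart. The hypoxia core, found in 21.4% of all windows, was matched in the window of DPP4 and in the first of the 2 of SLC29A1, at a palindrome that reads the same on both strands. The stretches below show 1 match for each of the 4 genes in capitals, in the direction of transcription, and the other SP1 matches are not shown.
NT5E, SP1 core, chr6:85449999-85450028, plus strand: ctgaagaaggacCCGCCCcggccttgaccc
ADORA2B, SP1 core, chr17:15945010-15945039, plus strand: gtgggtggtgctCCGCCCagcccgagacgg
SLC29A1, hypoxia core, chr6:44219365-44219394, plus strand: cagtgCACGTGctcccaggtctcagggagg
DPP4, hypoxia core, chr2:162074413-162074442, minus strand: ccctcgcctgtcCACGTGaggttggaggag
A match describes the letters of the window and is not a binding site.

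The enzymes that make adenosine come first. NT5E measured 20.8, 19.0 and 20.5 FPKM in medium, from 2760 to 3266 reads a library. With TNF-α it measured 24.7, 24.2 and 24.0 FPKM. With TNF-α and 5-OH-TMT it measured 18.7, 17.4 and 18.5 FPKM, and with TNF-α and the HTRA2 knockdown 26.5, 27.2 and 25.4 FPKM. The 4 groups did not overlap, and their order was 5-OH-TMT, medium, TNF-α and knockdown from lowest to highest.

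The lower level under 5-OH-TMT is what NT5E was chosen by: its mean was 0.749 times that with TNF-α, a log2 difference of -0.41 (SE 0.06). Across all tested genes, 0.00553% were called lower and 0.0332% higher in this comparison. The share called lower is 1 gene, NT5E itself, so it is no background for NT5E. It passed the threshold in 6 of 11 other settings and in 0 of 6 fits with a library left out. Since this comparison chose NT5E, nothing is read from its place among the tested genes. The 5-OH-TMT libraries also lay below those in medium.

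NT5E was higher in the knockdown than in medium, a comparison of the 2 groups that did not choose the gene. The means were 26.4 ± 0.927 and 20.1 ± 0.988 FPKM, a log2 change of 0.39 (SE 0.06, 95% interval 0.26 to 0.52, adjusted p = 4.97e-04). Without the second knockdown library the change was 0.37 (adjusted p = 0.00162). The SE of this fit pools the spread of all 12 libraries, among them those that chose NT5E. Over 11 other settings, a fit of those 2 groups alone among them, the adjusted p ran from 4.54e-04 to 0.0136. This comparison changes TNF-α and HTRA2 together.

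The TNF-α libraries were among those that chose NT5E, so its other comparisons with them are also given without a test. The mean was 24.3 FPKM with TNF-α against 20.1 in medium, a log2 difference of 0.27 (SE 0.06). Between the knockdown and TNF-α the log2 difference was 0.12 (SE 0.06). All 3 knockdown libraries lay above all 3 with TNF-α.

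ENTPD2 (chr9:137048098-137054045, minus strand), an ectonucleotidase that favours ATP, spanned 3.86 to 6.07 FPKM over the 12 libraries and its groups overlapped in the 3 comparisons without 5-OH-TMT. Its log2 differences were -0.08 for TNF-α against medium, 0.04 for the knockdown against TNF-α and -0.03 for the knockdown against medium, each with an SE of 0.14 and an adjusted p of 0.874, 0.875 and 0.909. The ratio of NT5E to ENTPD2, in FPKM, was 3.27 to 4.56 in medium, 5.01 to 5.42 with TNF-α and 3.08 to 3.61 under 5-OH-TMT. In the 3 knockdown libraries this ratio was 4.64, 7.04 and 4.88, so the second library alone set the upper end. NT5E was chosen by its difference between 5-OH-TMT and TNF-α, which the ratio carries, so nothing is read from that part of it.

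ENTPD1 (chr10:95711779-95869695, plus strand), also known as CD39, was near the limit of the filter. It had 32, 48 and 39 reads in medium, 34, 32 and 30 with TNF-α, 20, 6 and 14 under 5-OH-TMT and 24, 23 and 38 in the knockdown. The 5-OH-TMT libraries were the lowest, with 0.0242 to 0.0815 FPKM against 0.115 to 0.147 with TNF-α, and they lay below every other library. An exact two-sided permutation test of 3 libraries against 3 cannot go below p = 0.1. In limma the log2 difference of 5-OH-TMT from TNF-α was -0.61 (SE 0.31) and was not called (adjusted p = 0.298). The other tested log2 differences of ENTPD1 were -0.23 for TNF-α against medium, -0.14 for the knockdown against TNF-α and -0.36 for the knockdown against medium (adjusted p = 0.817, 0.813 and 0.451). ENTPD1-AS1 on the opposite strand overlaps 116490 bases of the gene and had a mean of 0.176 FPKM. The strandedness of the counting is not given in the sources used here, so reads of the pair may not be separated.

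Of the receptors, ADORA2B made up 97.3% to 99.0% of the summed FPKM of the 4 adenosine receptors in each library. ADORA3 was listed at 0 in all 12. ADORA1 spanned 0.241 to 0.604 FPKM with overlapping groups, and its log2 differences were -0.45 (TNF-α against medium), 0.42 (knockdown against TNF-α) and -0.03 (knockdown against medium), with adjusted p of 0.500, 0.319 and 0.958. ADORA2A did not pass the filter. It had 4, 4 and 9 reads in medium, 10, 10 and 3 with TNF-α, 12, 13 and 6 under 5-OH-TMT and 25, 9 and 16 in the knockdown, so the groups overlapped and a difference was not detectable at this depth. When all genes were fitted, the log2 difference of ADORA2A between knockdown and medium was 0.55 (SE 0.25, adjusted p = 0.214).

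ADORA2B (ENSG00000170425, chr17:15944917-15975746, plus strand), a low-affinity adenosine receptor that couples to Gs, measured 30.6, 31.8 and 29.2 FPKM in medium. It measured 30.8, 32.2 and 30.3 FPKM with TNF-α, 37.1, 35.1 and 35.1 under 5-OH-TMT and 26.6, 24.8 and 26.6 in the knockdown. Medium and TNF-α overlapped, all 5-OH-TMT libraries lay above every other library, and all knockdown libraries lay below. The difference of 5-OH-TMT from TNF-α was 0.20 (SE 0.06) and was not called (adjusted p = 0.119). Against medium, where TNF-α and the compound change together, it was 0.23 (adjusted p = 0.0384). The receptor was lower in the knockdown than with TNF-α by a log2 change of -0.26 (SE 0.06, adjusted p = 0.01004), and lower than in medium by -0.23 (SE 0.06, adjusted p = 0.0135). Without the second knockdown library these changes were -0.22 (adjusted p = 0.0229) and -0.20 (adjusted p = 0.0339). The call against medium was lost in a fit of those 2 groups alone (adjusted p = 0.0680). TNF-α against medium gave 0.03 (SE 0.06, 95% interval -0.10 to 0.16, adjusted p = 0.894).

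The genes that remove adenosine differed mainly in the transporter. SLC29A1 (ENSG00000112759, chr6:44219505-44234151, plus strand) measured 22.0, 23.6 and 19.4 FPKM in medium, 17.9, 21.7 and 17.5 with TNF-α and 18.2, 20.9 and 18.9 under 5-OH-TMT. In the knockdown it measured 11.9, 8.28 and 13.1 FPKM, below all other libraries. The change was -0.79 (SE 0.15, adjusted p = 0.00361) against TNF-α, where its mean was 0.583 times as high, and -0.98 (SE 0.15, adjusted p = 5.42e-04) against medium. The second knockdown library was the lowest, and without it the changes were -0.60 (adjusted p = 0.00416) and -0.78 (adjusted p = 5.27e-04). TNF-α against medium gave -0.19 (SE 0.15, adjusted p = 0.646).

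ADK (chr10:74151185-74709303, plus strand) measured 25.6, 25.9 and 27.8 FPKM in medium and 25.9, 24.4 and 26.3 with TNF-α. With 5-OH-TMT it measured 22.4, 21.9 and 21.9 FPKM, below every other library, and in the knockdown 22.8, 27.4 and 23.7, where the second library was the highest. The log2 difference of 5-OH-TMT from TNF-α was -0.21 (SE 0.07) and was not called (adjusted p = 0.156). The 3 other tested log2 differences of ADK were -0.05, -0.05 and -0.10, each with an SE of 0.07, for TNF-α against medium, knockdown against TNF-α and knockdown against medium (adjusted p = 0.831, 0.670 and 0.353).

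ADA (chr20:44619522-44652233, minus strand) measured 10.2, 14.2 and 11.3 FPKM in medium, 10.2, 9.97 and 10.7 with TNF-α, 12.8, 12.2 and 11.1 under 5-OH-TMT and 14.4, 11.2 and 13.9 in the knockdown. All knockdown libraries lay above all TNF-α libraries, with a log2 difference of 0.35 (SE 0.12, adjusted p = 0.0709). Without the second knockdown library, the lowest of the 3, it was 0.46 (adjusted p = 0.0205), and over the 11 other settings the adjusted p ran from 0.0353 to 0.126. The log2 differences against medium were -0.19 with TNF-α and 0.15 in the knockdown (adjusted p = 0.528 and 0.411). PKIG on the opposite strand overlaps 4726 bases of ADA and had a mean of 16.7 FPKM, so ADA's values are uncertain if strand was not used. The ratio of ADK to ADA, in FPKM, was 1.83 to 2.50 in medium, 2.44 to 2.54 with TNF-α and 1.75 to 1.96 under 5-OH-TMT. In the 3 knockdown libraries this ratio was 1.58, 2.44 and 1.70, so the second library alone set the upper end.

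DPP4 (ENSG00000197635, chr2:161992241-162074542, minus strand), a surface peptidase that binds ADA, was low in all groups. It measured 0.294, 0.174 and 0.177 FPKM in medium, 0.261, 0.224 and 0.220 with TNF-α, and 0.170, 0.376 and 0.205 under 5-OH-TMT, from 28 to 67 reads. In the knockdown it measured 0.553, 0.703 and 0.581 FPKM from 100 to 127 reads, above every other library. The mean was 2.61 times that with TNF-α. The log2 change was 1.08 (SE 0.26, adjusted p = 0.0136) against TNF-α and 1.19 (SE 0.26, adjusted p = 0.00593) against medium, and without the second knockdown library 0.996 (adjusted p = 0.0427) and 1.10 (adjusted p = 0.0229). At this low level the change depended on the pseudocount, from 0.38 to 1.35 against TNF-α over the alternative settings. Between TNF-α and medium the log2 difference of DPP4 was 0.11 (95% interval -0.46 to 0.68, adjusted p = 0.908).

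**Figure D2:**
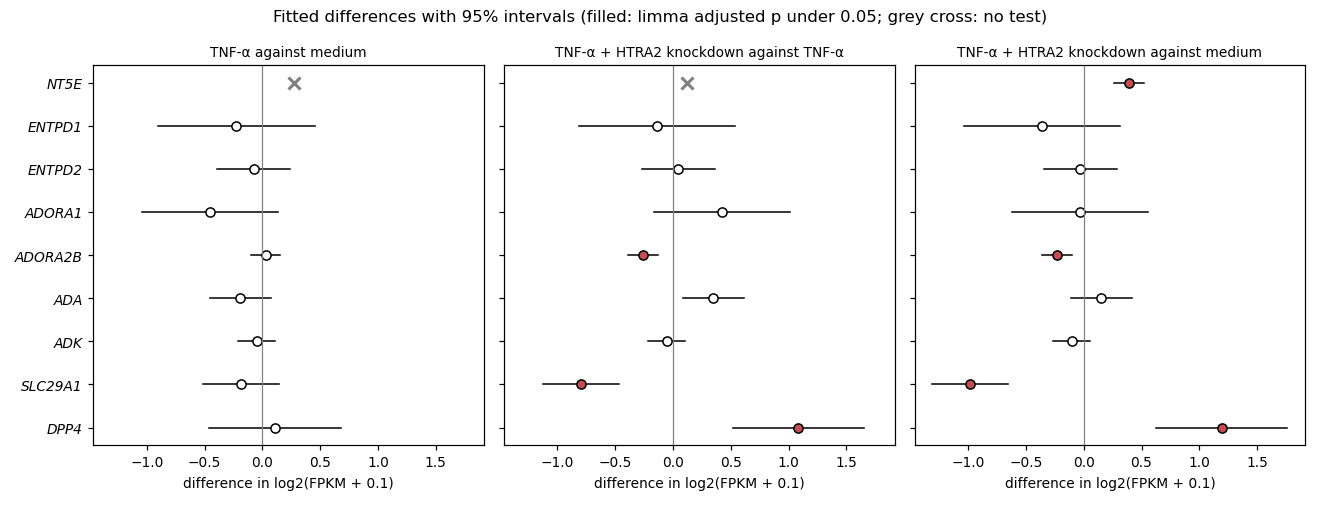
Fitted differences in log2(FPKM + 0.1) with 95% intervals (x axis) for the 9 adenosine genes that passed the filter (y axis), in 3 comparisons, with filled points for an adjusted p under 0.05 in limma and a grey cross, with no test, for NT5E where the TNF-α libraries that chose it enter. Both knockdown panels hold filled points for ADORA2B and SLC29A1 below 0 and for DPP4 above 0, and NT5E is filled in the comparison with medium.

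Counted over the 9 genes that passed the filter, 1 had an adjusted p under 0.05 with TNF-α against medium, where 3.22% of all tested genes were called higher and 0.885% lower. That gene was NT5E, chosen with these TNF-α libraries, so nothing is read from this count. In the knockdown against TNF-α, 1 was called higher and 2 lower beside 9.35% and 8.08% of all genes. In the knockdown against medium, 2 were called higher and 2 lower beside 12.9% and 11.4%. Their median log2 differences were -0.08, 0.04 and -0.03 in these 3 comparisons, and those of all tested genes were -0.002, -0.003 and -0.01. By the threshold the study used for a differentially expressed gene, a fold change of 2 with an unadjusted p of at most 0.05, DPP4 passed in both knockdown comparisons and no other member did, beside 4.23% and 6.52% of all genes. Without the second knockdown library its log2 change against TNF-α was 0.996, just under that fold change. Over the alternative settings the change went down to 0.38 against TNF-α and 0.41 against medium, which also miss it.

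The 86 further genes of purine handling and cAMP signalling, listed from textbook roles, give the surroundings of these 10. Of them 62 passed the filter. With TNF-α against medium 4 were called higher (6.45%, against 3.22% of all tested genes) and 3 lower (4.84%, against 0.885%). In the knockdown against TNF-α 14 were called higher (22.6%, against 9.35% of all tested genes) and 6 lower (9.68%, against 8.08%), and 18 and 5 without the second knockdown library. In the knockdown against medium 18 were called higher (29.03%, against 12.9% of all tested genes) and 10 lower (16.1%, against 11.4%), and 20 and 9 without that library. The median log2 differences, over genes that went both ways, were -0.05, 0.09 and -0.02. These shares describe a list of genes chosen for their roles and were not tested. In the comparison of 5-OH-TMT with TNF-α limma called none of the 62, where 0.0332% of all tested genes were called higher and 0.00553%, NT5E alone, lower. Voom on recovered reads called 1, and as the share of all genes in that setting is not given, nothing is read from it.

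**Figure D3:**
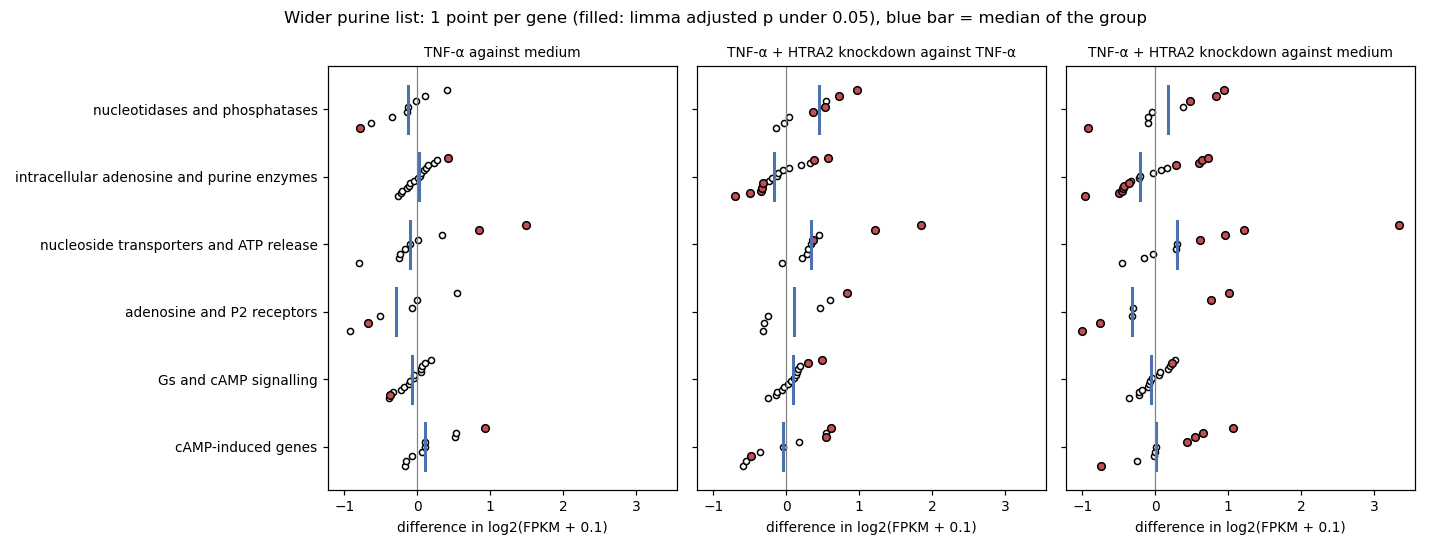
Difference in log2(FPKM + 0.1) (x axis) of each of the 62 tested genes of the wider purine list, by group of roles (y axis), in 3 comparisons, with filled points for an adjusted p under 0.05 in limma and a blue bar at each group's median. The largest difference is that of SLC28A3, which lies at 3.35 in the knockdown against medium, and 4 of the 6 groups hold filled points on both sides of 0 there.

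Among the transporters and ATP release channels, 9 of 10 were tested. With TNF-α against medium 2 were called higher, in the knockdown against TNF-α 3 and in the knockdown against medium 4, and none was called lower, beside the 3.22%, 9.35% and 12.9% of all genes called higher. SLC28A3, a concentrative nucleoside transporter driven by sodium, measured 0.239, 0.178 and 0.345 FPKM in medium, 0.802, 1.001 and 0.853 with TNF-α, 1.30, 1.20 and 1.70 under 5-OH-TMT and 3.94, 3.35 and 3.09 in the knockdown. The 4 groups did not overlap. Its log2 change was 1.498 (SE 0.19, adjusted p = 5.63e-04) with TNF-α, 1.85 (SE 0.19, adjusted p = 6.59e-05) in the knockdown against TNF-α and 3.35 (adjusted p = 1.76e-07) against medium. These calls held in every setting, although the change against medium ran from 1.83 to 3.78 and that with TNF-α from 0.59 to 1.82, since the gene was low in medium. In the knockdown SLC28A3 thus moved opposite to the equilibrative transporter SLC29A1. The related SLC29A2, SLC29A3 and SLC29A4 were not called in the knockdown against TNF-α (0.21, 0.34 and 0.45). Without the second knockdown library SLC29A2 (0.38, adjusted p = 0.0333) and SLC29A3 (0.68, adjusted p = 0.00153) were called higher.

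PANX1, a channel through which cells release ATP, rose from 9.27 ± 1.68 FPKM in medium to 16.7 ± 0.786 with TNF-α (log2 change 0.85, SE 0.11, adjusted p = 7.48e-04) and measured 21.5 ± 0.793 in the knockdown. The step from TNF-α to the knockdown was 0.37 (adjusted p = 0.0426) and its call was lost whichever of the 6 libraries was left out (0.0687 to 0.123). SLC28A1, another concentrative transporter, was at 0.265 ± 0.131 FPKM in medium, 0.199 ± 0.0653 with TNF-α and 0.603 ± 0.216 in the knockdown, a change of 1.22 against TNF-α (adjusted p = 0.0166) and 0.96 against medium (adjusted p = 0.0379). Its call against TNF-α was lost without TNF-α library 1 (0.0516) or 2 (0.0652) or knockdown library 3 (0.0675), and that against medium without medium library 1 (0.115) or 3 (0.119) or knockdown library 1 (0.0532) or 3 (0.138). The call against medium was also lost in a fit of those 2 groups alone (0.110), with no filter (0.0867), with quantile normalization (0.0633) and with replicate number in the fit (0.0643).

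Of the 14 further nucleotidases and phosphatases, which include surface ectoenzymes and the lumenal enzymes ENTPD4, ENTPD5, ENTPD6 and ENTPD7 of intracellular compartments, 8 were tested. ALPP, an alkaline phosphatase that can dephosphorylate AMP at the cell surface, fell from 45.8, 53.3 and 49.3 FPKM in medium to 26.1, 31.7 and 28.1 with TNF-α (log2 change -0.79, SE 0.12, adjusted p = 0.00209). It measured 27.8, 20.8 and 29.9 FPKM in the knockdown, lower than in medium by -0.93 (adjusted p = 1.50e-04). Without the second knockdown library, the lowest, this change was -0.77 (adjusted p = 1.07e-04). ALPP has near-identical copies, so its reads may be split among them. In the knockdown against TNF-α 4 of the 8 were called higher, ENTPD4 and ENTPD7 among them, and none lower, where 9.35% and 8.08% of all genes were. ENTPD7, of intracellular vesicles, rose from 3.23 ± 0.156 to 4.75 ± 0.518 FPKM (0.54, SE 0.11, adjusted p = 0.00591), ENTPD3 from 0.599 ± 0.218 to 1.22 ± 0.149 (0.97, adjusted p = 0.0154) and ACPP, an acid phosphatase that also cleaves AMP, from 0.656 ± 0.0315 to 1.18 ± 0.300 (0.73, adjusted p = 0.0178). The calls of ENTPD3 and ACPP were lost in a fit of those 2 groups alone (0.0612 and 0.0635) and without TNF-α library 2 (0.0580 and 0.0622), that of ENTPD3 also without knockdown library 3 (0.0514), and that of ACPP without knockdown library 1 (0.0598) or 3 (0.0693).

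**Figure D4:**
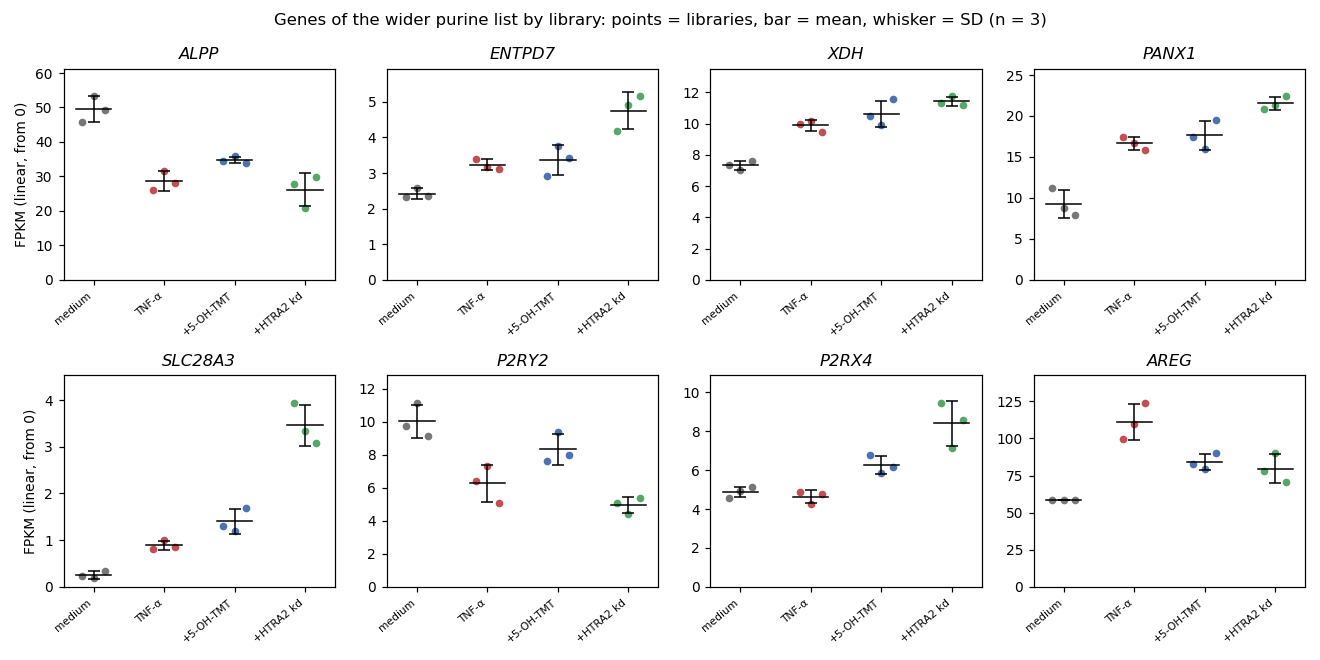
FPKM (linear axis from 0, its own scale in each panel) of 8 genes of the wider purine list in the 12 libraries, with 1 point per library, the group mean as a bar and the SD (n = 3) as a whisker. SLC28A3 and PANX1 are highest in the knockdown, P2RY2 and ALPP are highest in medium, and AREG is highest with TNF-α.

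Of the 16 further purine receptors only 6 passed the filter. P2RY2, a receptor for ATP and UTP, fell from 9.76, 11.1 and 9.16 FPKM in medium to 6.42, 7.29 and 5.08 with TNF-α (log2 change -0.68, SE 0.14, adjusted p = 0.0122). This call was lost without medium library 2 (0.0587) and in a fit of those 2 groups alone (0.0879). In the knockdown P2RY2 measured 5.05, 4.40 and 5.40 FPKM, lower than in medium by -1.003 (SE 0.14, adjusted p = 2.11e-04). P2RX4, an ion channel opened by ATP, rose from 4.64 ± 0.335 FPKM with TNF-α to 8.41 ± 1.16 in the knockdown (0.84, SE 0.10, adjusted p = 2.44e-04). P2RX6 was low, at 0.337 ± 0.0704 FPKM in medium and 0.158 ± 0.0359 in the knockdown (-0.76, adjusted p = 0.0334), and its call was lost without medium library 1 (0.0648) or 2 (0.106) and without knockdown library 1 (0.104) or 2 (0.0513). The call of P2RX6 was also lost in a fit of those 2 groups alone (0.0891), with no filter (0.0592) and with replicate number in the fit (0.0567).

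Of the 20 intracellular purine enzymes 16 were tested, and in the knockdown against TNF-α 2 were called higher and 5 lower, where 9.35% and 8.08% of all genes were. HPRT1, which salvages hypoxanthine and guanine, fell from 47.9 ± 3.94 to 33.9 ± 4.96 FPKM (-0.50, SE 0.10, adjusted p = 0.00353), and AK1, an adenylate kinase, from 0.921 ± 0.179 to 0.528 ± 0.141 (-0.71, adjusted p = 0.0244). Without the second knockdown library the change of HPRT1 was -0.62 (adjusted p = 3.01e-04). NT5C3A, a cytosolic nucleotidase that prefers pyrimidine nucleotides, rose from 4.21 ± 0.476 to 6.35 ± 0.938 FPKM (0.58, SE 0.12, adjusted p = 0.00511). The call of AK1 was lost without TNF-α library 2 (0.0812) or 3 (0.0930) and without knockdown library 1 (0.0872) or 2 (0.0709). It was also lost in a fit of those 2 groups alone (0.0962) and with no filter (0.0558). XDH, which oxidises hypoxanthine and xanthine to uric acid, rose from 7.33 ± 0.280 FPKM in medium to 9.89 ± 0.369 with TNF-α (0.43, SE 0.07, adjusted p = 0.00380) and was 11.4 ± 0.284 in the knockdown (0.63 against medium, adjusted p = 4.44e-05).

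Downstream of the Gs-coupled receptors, 14 of 16 genes of cAMP signalling were tested. With TNF-α against medium 1 was called lower (0.885% of all genes were), in the knockdown against TNF-α 2 were called higher (9.35% of all genes), and in the knockdown against medium 1 was called higher (12.9% of all genes). ADCY9, an adenylyl cyclase, fell from 3.95 ± 0.0686 FPKM in medium to 3.02 ± 0.0517 with TNF-α (-0.38, SE 0.07, adjusted p = 0.00786) and measured 3.75 ± 0.108 in the knockdown, 0.30 above TNF-α (adjusted p = 0.0106). Its call with TNF-α was lost in a fit of those 2 groups alone (0.0609). ADCY6, another cyclase, rose from 4.15 ± 0.136 FPKM with TNF-α to 5.86 ± 0.217 in the knockdown (0.49, SE 0.10, adjusted p = 0.00457). GNAS, which encodes the Gs alpha subunit, was 103 ± 4.20 FPKM in medium and 121 ± 7.69 in the knockdown (0.23, adjusted p = 0.0222), and its call was lost without medium library 1 (0.0579) or 3 (0.0725) and without knockdown library 1 (0.0717) or 3 (0.0743). The call of GNAS was also lost in a fit of those 2 groups alone (0.0984) and without the trend in limma (0.0527).

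Of 10 genes known to be induced by cAMP 9 were tested. AREG, an EGF receptor ligand that many other signals also induce, rose from 58.2, 58.2 and 58.4 FPKM in medium to 99.5, 110 and 124 with TNF-α (0.92, SE 0.10, adjusted p = 1.31e-04). In the knockdown it measured 77.9, 90.3 and 70.7 FPKM, a change of -0.48 against TNF-α (SE 0.10, adjusted p = 0.00522). PER1, a clock gene, rose from 7.52 ± 0.9003 FPKM with TNF-α to 11.02 ± 1.17 in the knockdown (0.55, SE 0.12, adjusted p = 0.00768). NR4A1, an immediate early nuclear receptor, was 0.650 ± 0.0993 FPKM with TNF-α and 1.05 ± 0.165 in the knockdown (0.61, adjusted p = 0.0232), and NR4A2, a related receptor, was 0.336 ± 0.0661 in medium and 0.810 ± 0.0842 in the knockdown (1.07, adjusted p = 0.00906). RGS2, a regulator of G protein signalling, was 1.25 ± 0.337 FPKM in medium and 0.708 ± 0.188 in the knockdown (-0.74, adjusted p = 0.0306). The call of NR4A1 was lost without TNF-α library 1 (0.0856) or 3 (0.0538) and without knockdown library 1 (0.1003) or 3 (0.0537), and that of RGS2 without medium library 2 (0.0695) or 3 (0.114) and without knockdown library 1 (0.0755) or 3 (0.110). The calls of NR4A1 and RGS2 were also lost in a fit of only the 2 groups compared (0.0739 and 0.108) and with no filter (0.0532 and 0.0693). In the knockdown against TNF-α 2 of the 9 were called higher and 1 lower, where 9.35% and 8.08% of all genes were.

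Lastly, the genes whose levels over the 12 libraries followed NT5E most closely were sought among 11184 genes with a mean of at least 1 FPKM. The highest Pearson correlations of log2(FPKM + 0.1) were those of SS18 (0.972), TMED10 (0.926), TSPAN3 (0.922), RNF145 (0.920) and CACUL1 (0.916). The lowest were those of NDUFB11 (-0.961), SLC3A2 (-0.939), LSM10 (-0.933), C7orf26 (-0.932) and NOSIP (-0.930). SS18 had means of 5.96 FPKM in medium, 6.72 with TNF-α, 5.60 under 5-OH-TMT and 7.16 in the knockdown, the same order as NT5E. These values describe the 12 libraries, which share the 4 treatments, and the genes were picked as the extremes of many.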

How the data were processed

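RNA of 12 NCM460 libraries was measured, 3 in each of 4 groups taken from the sample labels. The authors deposited FPKM values in 1 table, with the gene length used. Per the labels, the submitters' processing notes name CASAVA 1.8, HISAT2 2.0.4, HTSeq 0.9.1 and hg38. All 58735 gene IDs had the coordinates of GENCODE 29. The deposited FPKM already carried a median-of-ratios scaling, with the same factor (1.01) in all 12 libraries. Whole reads were recovered from FPKM, gene length and each library's smallest step (100% whole within 0.1 read). They are shown beside low values.

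Log2(FPKM + 0.1) was fitted for the 18079 genes averaging 0.1 FPKM or more, with limma 3.58.1 (R 4.3.3; lmFit, eBayes with trend), 1 mean per group, 8 residual degrees of freedom, two-sided, with Benjamini-Hochberg adjustment. ADORA2A was taken from the fit without a filter. In simulated data for TNF-α against medium on 18079 genes, the fit recovered 90 to 93 of 100 genes changed by 1 on the log2 scale and 100 of 100 changed by 2, with 4 to 16 false calls over 5 runs. The changed genes were drawn from those averaging at least 100 reads, and all genes had the same spread between replicates. The rates therefore do not cover genes with fewer reads, such as DPP4, ENTPD1 and ADORA1, or smaller changes. Alternatives were other pseudocounts (1, 0.01), filters (1 or none), scalings, quantile normalization, a fit to 2 groups, no trend, a replicate block, voom on recovered reads and leaving out each library. Rescaling to the reads on genes was chosen after seeing the data.

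The members and lists were chosen with earlier results of these data known. Named are the 10 members, HTRA2, the 5 genes at each end of the correlation with NT5E, and from each group of the wider list up to 3 genes per comparison that were called with groups not overlapping, by size of change. Promoter sequences are from RefSeq, and 9 of the 10 genes had a window.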

Additional observations from a re-analysis of the deposited data

How the results depend on the processing

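NT5E with TNF-α against medium, which is given without a test in the report, had a log2 difference of 0.27, and 0.26 when rescaled to the reads on genes (added after seeing the data), 0.24 with quantile normalization, 0.27 in a fit to those 2 groups, without trend and with a replicate block, and 0.26 with voom on recovered reads. It was 0.23 to 0.30 with each library left out. The count of 1 member called in this comparison rests on NT5E. It fell to 0 in these 6 settings and was 0 to 1 with a library left out, and nothing is read from it. NT5E in the knockdown against medium kept its call in all 11 settings (0.37 to 0.39) and without each library (0.35 to 0.42). Of the wider purine list in the knockdown against TNF-α, a fit to those 2 groups called 13 in place of 20, and leaving out 1 library gave 12 to 23: 12 without TNF-α library 2 and 13 without knockdown library 1.

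The values that changed sign did so with 1 library left out, and none of these was called in any setting. For TNF-α against medium these were ENTPD2 (-0.14 to 0.0328) and ADORA2B (-0.00432 to 0.0558). For the knockdown against TNF-α they were ENTPD2 (-0.0687 to 0.21) and ADK (-0.13 to 0.000351), and for the knockdown against medium ENTPD2 (-0.15 to 0.13) and ADORA1 (-0.16 to 0.20). Of 1068 alternative values of the other named genes, 987 kept direction and call, 67 lost the call, 4 gained it (all ADA, knockdown against TNF-α) and 10 changed sign.

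The replicate numbers did not pair the libraries: deviations of same-numbered libraries correlated at -0.37 to 0.15 over 18 pairs, and of others at -0.21 to 0.35 over 36. With the replicate block the members called in the 2 knockdown comparisons stayed at 3 and 4. Counting error limits the genes under 1 FPKM: 3 reads are 0.0161 to 0.0192 FPKM for DPP4 and 0.0115 to 0.0138 for ENTPD1, and these floors cover counting error only.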
